A study of Dunaliella salina with 12 samples.

Results

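The 88 genes described here were lower after 2 h in added NaCl and after 2 h in sorbitol, by amounts chosen to be similar. Their level in H2O2 was chosen to lie near control. In 71 of the 88 the level was lower with NaCl than with sorbitol. The genes were found in Dunaliella salina strain 435, a unicellular green alga of salt lakes. They were chosen by the deposited values themselves. Each had a control mean from 10 to below 1000 FPKM (mapped fragments per length of transcript, relative to all mapped fragments of the library), and its mean log2(FPKM + 1) was at least 0.8 below control with NaCl and with sorbitol. The NaCl and sorbitol differences lay less than 0.4 apart, the H2O2 difference was within 0.4 of 0, and every NaCl and sorbitol library was below all 3 control libraries. The table holds 82333 assembled genes, of which 10073 met the condition on control level (called eligible below), so the 88 were 0.874% of the eligible genes.

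Cells labelled as 5 days old were spun down and moved for 2 h into fresh medium, which held 1.5 M NaCl in every group. The control group received that medium alone. The NaCl group had a further 1.5 M NaCl, the sorbitol group 1.5 M sorbitol and the H2O2 group 0.4 mM H2O2. In all, 4 groups of 3 libraries were made from whole cells. For every library the labels give 25 °C, 16 h of light and 8 h of dark, and 8000 lx. Nothing in the labels ties the libraries of a group to separate cultures, and every p-value here may therefore reflect technical spread alone.

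Dunaliella has no rigid cell wall, so its cells shrink when the medium becomes more concentrated and then regain volume by building up glycerol, made from photosynthetic carbon and from starch. Sorbitol draws water out of the cell without adding ions. Added NaCl does the same and brings sodium and chloride with it, and at equal molarity it gives the stronger osmotic step because it dissociates. H2O2 is an oxidant that also forms in cells under salt stress. The NaCl and sorbitol groups thus share a hypertonic step that the H2O2 group lacks. The IDs come from an assembly, 0 of them matched the reference table of 16683 genes, and the files do not pair them with names. No role can be given for any of the 88, no sequence is shown, and defining markers of the cells could not be checked.

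The libraries summed to between 1065190 and 1133348 FPKM and listed between 37005 and 42727 genes above 0. Low genes move in steps of 1 read, and comparing these steps put the depth of the libraries at 0.917 to 1.202 times their mean. The absolute depth is unknown, and no interval for counting error can be given. The 88 genes had 0 values at 0 in the 12 libraries, and the lowest was 0.41 FPKM. All 88 passed the filter for testing (at least 1 FPKM in at least 3 libraries), as they had to at their control level.

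The conditions removed genes in steps. Of the 10073 eligible genes, 375 were lower by at least 0.8 with both NaCl and sorbitol. Of these, 316 had an H2O2 difference within 0.4, and 100 of the 316 had NaCl and sorbitol differences less than 0.4 apart. The last condition, that no NaCl or sorbitol library reached a control library, left 88 and removed 12. It was met by 10.4% of all tested genes. When the bound on the NaCl minus sorbitol difference was set aside, 301 genes were lowered by both, of which the 88 were 29.2%. Another 206 were lower with NaCl by a further 0.4 or more, and 7 were lower with sorbitol by a further 0.4 or more. The mirrored rule for raised genes found 48.

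**Figure D1:**
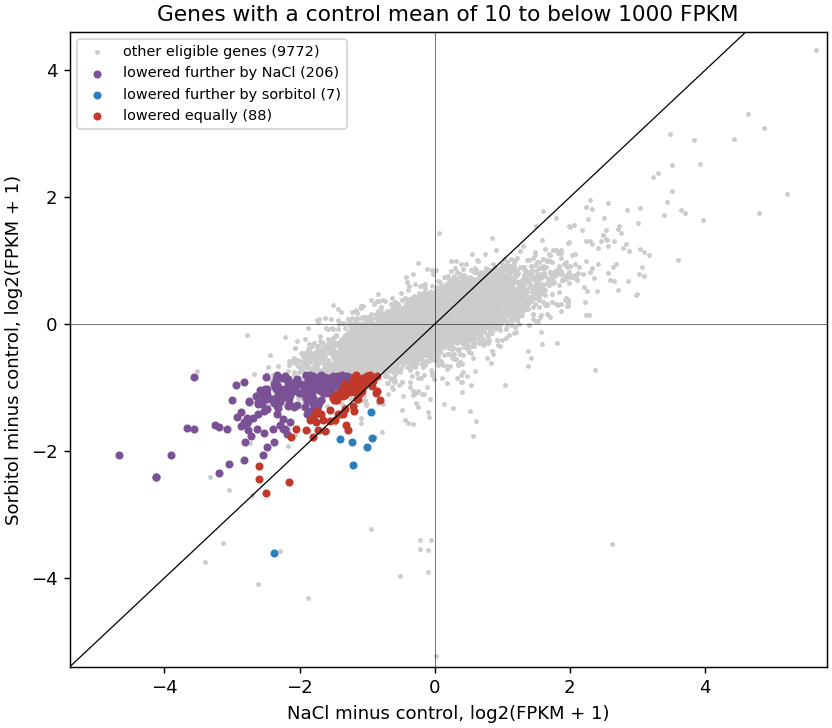
Mean log2(FPKM + 1) difference from control with NaCl (horizontal axis) and with sorbitol (vertical axis) for the 10073 eligible genes, 1 point a gene, with the line of equal differences. The 88 genes lowered equally (red) lie along that line between -0.80 and -2.67 on the sorbitol axis, beside the 206 lowered further by NaCl (purple) and the 7 lowered further by sorbitol (blue).

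As a share of all FPKM of a library, the 88 genes together held 0.334%, 0.336% and 0.333% in the control libraries and 0.158%, 0.142% and 0.147% in the NaCl libraries. They held 0.166%, 0.164% and 0.163% in the sorbitol libraries and 0.333%, 0.354% and 0.324% in the H2O2 libraries. The control and H2O2 libraries thus overlapped, the NaCl and sorbitol libraries lay well below both, and every NaCl library lay below every sorbitol library. The group means were 0.334% ± 0.0018 (SD, n = 3) for control and 0.337% ± 0.015 for H2O2, against 0.149% ± 0.0083 for NaCl and 0.164% ± 0.0017 for sorbitol. Without the most abundant member they were 0.284% and 0.289%, against 0.122% and 0.135%. These shares add up the values that chose the genes and are given without a test. They are relative to the RNA of a library, so a smaller number of cells that hold a transcript and less of it per cell cannot be told apart.

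The median of the 88 differences from control was -1.26 with NaCl (range -2.60 to -0.81), -1.08 with sorbitol (-2.67 to -0.80) and -0.03 with H2O2 (-0.40 to 0.38), all on the log2(FPKM + 1) scale. Over all 27038 genes tested the medians were 0.03, 0.07 and 0.07. In mean FPKM a member kept a median of 39.1% of its control level with NaCl (9.18% to 55.6%), 44.8% with sorbitol (12.3% to 56.3%) and 98.3% with H2O2 (72.9% to 134%). Below 50% of control were 78 members with NaCl, 63 with sorbitol and 0 with H2O2. Below 25% were 9 with NaCl and 6 with sorbitol. When the NaCl and sorbitol differences were averaged, 4 members were at -2 or lower, 15 between -2 and -1.5, 47 between -1.5 and -1, and 22 above -1.

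Library by library, the median difference of the 88 from the control mean was -1.26, -1.32 and -1.19 in NaCl replicates 1, 2 and 3, and -1.04, -1.15 and -1.11 in sorbitol replicates 1, 2 and 3. In the H2O2 libraries it was -0.02, 0.08 and -0.12. The 10073 eligible genes had medians from -0.04 to 0.08 in the NaCl libraries, 0.03 to 0.09 in the sorbitol libraries and 0.05 to 0.12 in the H2O2 libraries. The rule put every NaCl and sorbitol library of a member below all controls, so a lower median in each was fixed by the choice.

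**Figure D2:**
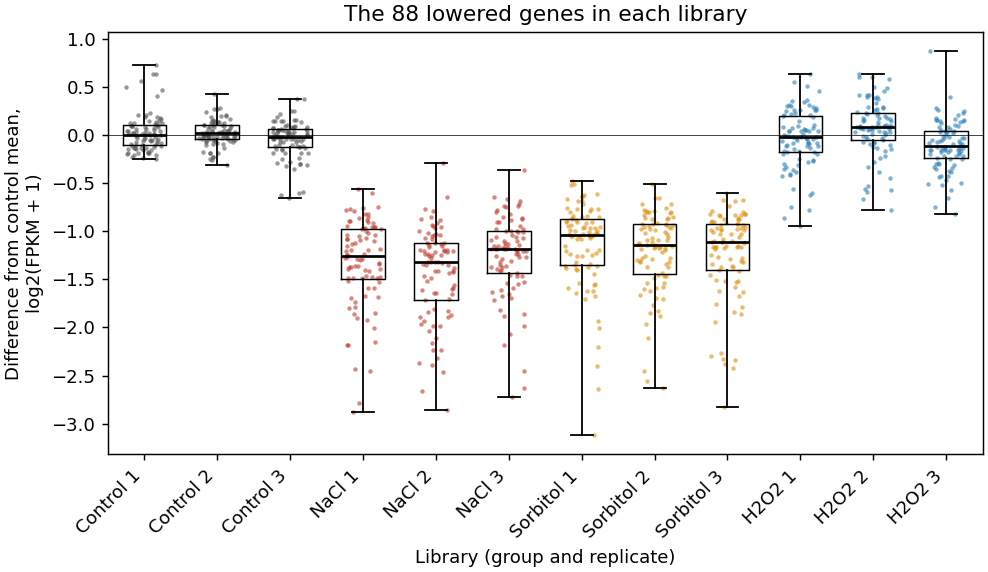
Difference from the control mean on the log2(FPKM + 1) scale (vertical axis) for the 88 genes in each of the 12 libraries (horizontal axis), 1 point a gene. Boxes span the quartiles, the thick line is the median and whiskers reach the lowest and highest gene. The medians lie between -1.04 and -1.32 in the 6 NaCl and sorbitol libraries and between -0.12 and 0.08 in the other libraries.

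The members spanned the range of control levels in about the proportion of the eligible genes. Of the 88, 40 were at 10 to below 20 FPKM in control (0.939% of the eligible genes there), 29 at 20 to below 50 (0.795%) and 19 at 50 to below 1000 (0.877%). The median NaCl difference was -1.36, -1.20 and -1.10 in these 3 bands and the median sorbitol difference -1.14, -1.09 and -0.98. The abundant members were lower by somewhat less. The median control level was 21.3 FPKM, against 23.1 for eligible genes and 24.7 for the genes lowered further by NaCl. Members are named below by their rank in control level, from 1 (highest) to 88, and IDs are printed for the members with the largest averaged difference only.

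The member of rank 1 was at 521, 580 and 603 FPKM in the control libraries, 329, 269.8 and 284 with NaCl, 308, 318 and 318 with sorbitol, and 525, 580 and 485 with H2O2. It is by far the most abundant of the 88, and its NaCl and sorbitol libraries overlap each other while lying well below all control and H2O2 libraries. Its means were 568 ± 42.4 in control (SD, n = 3), 294 ± 31.1 with NaCl and 315 ± 5.74 with sorbitol, which are 51.9% and 55.5% of control. The NaCl and sorbitol differences were -0.95 and -0.85 (SE 0.09 each), and NaCl minus sorbitol was -0.10 with a 95% interval from -0.29 to 0.09.

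Rank 2 in control level was held by a gene at 198, 192 and 199 FPKM in control, 79.5, 95 and 106 with NaCl, and 101, 106 and 99.3 with sorbitol. In the H2O2 libraries it was at 223, 206 and 358. Its control libraries are tightly grouped, all H2O2 libraries are above them, and H2O2 replicate 3 stands apart. Its H2O2 difference of 0.38 was the highest of the 88.

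At rank 3 was a gene with 138, 161 and 194 FPKM in control, 83.0, 69.4 and 75.4 with NaCl, 79.0, 77.1 and 75.1 with sorbitol, and 202, 174 and 153 with H2O2. Control and H2O2 overlap, as do NaCl and sorbitol. Its NaCl minus sorbitol difference was -0.02. Next in level, the gene of rank 4 was at 163, 144 and 135 FPKM in control, 75.3, 66.0 and 52.6 with NaCl, 80.2, 86.2 and 76.3 with sorbitol, and 131, 156 and 155 with H2O2. Here every NaCl library was below every sorbitol library, and NaCl minus sorbitol was -0.33 (95% interval -0.60 to -0.06).

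Rank 5 belonged to a gene at 144, 143 and 150.2 FPKM in control, 72.3, 56.6 and 44.3 with NaCl, 68.2, 73.7 and 60.0 with sorbitol, and 136, 135 and 135 with H2O2. Its NaCl libraries spread widely and overlap the sorbitol ones, whereas all H2O2 libraries are slightly below all control libraries. Close to it in level, rank 6 was at 132, 128 and 96.6 FPKM in control, 55.0, 52.2 and 58.6 with NaCl, 56.7, 53.1 and 59.0 with sorbitol, and 109, 107 and 95.4 with H2O2. NaCl and sorbitol cover almost the same narrow range, with NaCl minus sorbitol at -0.03.

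The gene ranked 7 was at 116, 115 and 118 FPKM in control, 59.6, 43.2 and 37.5 with NaCl, 44.7, 46.3 and 45.4 with sorbitol, and 125, 132 and 105 with H2O2. The sorbitol libraries lie inside the spread of the NaCl libraries. It had a NaCl difference of -1.33 and a sorbitol difference of -1.34, the second closest pair among the 88. For rank 8 the libraries were at 116, 116 and 112 FPKM in control, 63.2, 51.9 and 50.9 with NaCl, 58.2, 65.6 and 62.1 with sorbitol, and 89.0, 103 and 79.9 with H2O2. All its H2O2 libraries were below its control libraries, at an H2O2 difference of -0.34.

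Rank 9 was a gene at 122, 119 and 86.9 FPKM in control, 32.8, 26.5 and 29.0 with NaCl, 36.1, 34.4 and 41.5 with sorbitol, and 106, 112 and 80.0 with H2O2. It was the most strongly lowered of the first 10, to 26.9% of control with NaCl and 34.2% with sorbitol, and its NaCl libraries were all below its sorbitol libraries. Last of the first 10, rank 10 was at 86.5, 91.4 and 89.3 FPKM in control, 47.6, 35.1 and 36.7 with NaCl, 38.4, 39.0 and 38.9 with sorbitol, and 84.3, 92.3 and 70.3 with H2O2. Its sorbitol libraries agree closely with each other and lie within the NaCl range.

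**Figure D3:**
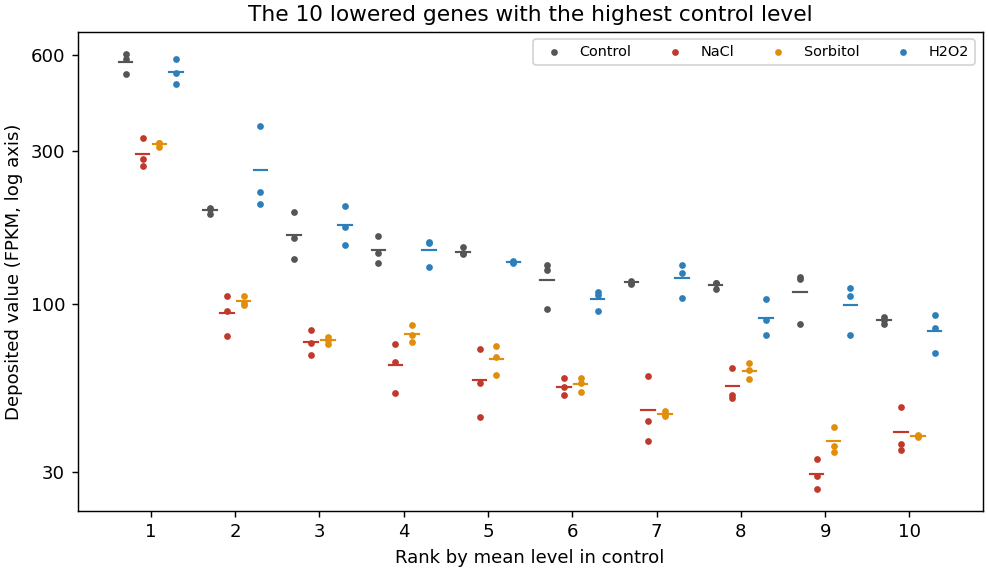
Deposited FPKM (log axis) of the 10 members with the highest control level (horizontal axis, rank by control mean) in every library, colored by group, with short lines at the group means of 3 libraries. The control and H2O2 points of each gene lie above its NaCl and sorbitol points, which overlap each other except at ranks 4 and 9.

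The largest averaged differences belonged to less abundant members. The gene c25161_g1 was at 20.01, 21.8 and 24.5 FPKM in control, 4.07, 2.17 and 3.21 with NaCl, 1.65, 2.90 and 3.58 with sorbitol, and 26.4, 23.1 and 18.8 with H2O2. Its mean went from 22.1 ± 2.26 in control to 3.15 ± 0.95 with NaCl and 2.71 ± 0.98 with sorbitol (SD, n = 3). The differences were -2.50 and -2.67 (SE 0.22 each), and NaCl minus sorbitol was 0.17 with a 95% interval from -0.31 to 0.66, wider than the bound of the rule.

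The gene c26404_g2 was at 23.5, 31.5 and 23.4 FPKM in control, 2.91, 4.20 and 3.35 with NaCl, 3.32, 3.93 and 4.61 with sorbitol, and 21.3, 25.8 and 23.7 with H2O2. It kept 13.3% of its control level with NaCl and 15.1% with sorbitol, and its H2O2 libraries lay inside the control range or just below it. The differences were -2.59 and -2.45 (SE 0.16 each).

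Next by averaged difference was the member of rank 80, at 9.52, 12.4 and 12.9 FPKM in control, 1.32, 0.98 and 0.89 with NaCl, 1.71, 1.89 and 1.40 with sorbitol, and 11.9, 12.2 and 10.2 with H2O2. At 9.18% of control it kept the least of any member with NaCl, and all its NaCl libraries were below its sorbitol libraries. Rank 46 followed, at 21.0, 22.6 and 19.4 FPKM in control, 3.82, 3.41 and 4.54 with NaCl, 3.15, 2.54 and 3.09 with sorbitol, and 22.5, 20.5 and 22.2 with H2O2. It had the opposite order, with every NaCl library above every sorbitol library and NaCl minus sorbitol at 0.32. Rank 72 was the last of these 5, at 11.2, 13.5 and 14.5 FPKM in control, 2.16, 2.13 and 2.33 with NaCl, 2.68, 3.84 and 2.87 with sorbitol, and 16.0, 14.1 and 12.5 with H2O2. Its NaCl libraries were nearly identical and below the sorbitol libraries.

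The closest NaCl and sorbitol levels were those of the member of rank 40, at 9.54, 9.45 and 11.6 FPKM with NaCl and 9.31, 11.3 and 10.2 with sorbitol. Its control libraries were at 22.7, 23.3 and 23.7 and its H2O2 libraries at 29.7, 36.7 and 22.2 FPKM. The differences from control were -1.12 and -1.11, and the NaCl and sorbitol libraries interleave. After ranks 40 and 7, the closest was rank 55, with differences of -1.40 and -1.42, but its NaCl libraries ran from 3.88 to 7.61 FPKM, and the 95% interval of its NaCl minus sorbitol difference was -0.50 to 0.52.

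In the limma model fitted over all tested genes, 88 of the 88 were lower with NaCl at an adjusted p below 0.05, where 17.4% of all tested genes were called lower. With sorbitol, 82 of 88 were called lower, where 6.47% of all tested genes were. Both contrasts chose the genes, so nothing is read from these counts. The highest adjusted p was 0.043 with NaCl and 0.15 with sorbitol. The 6 members that were not called with sorbitol had ranks 35, 50, 66, 69, 82 and 87. Their sorbitol differences ran from -0.82 to -1.78, and their libraries were uneven.

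Among these 6, rank 35 was at 38.4, 21.2 and 14.5 FPKM in control, 4.94, 3.33 and 13.3 with NaCl, and 10.8, 8.75 and 5.92 with sorbitol. One NaCl library comes close to the lowest control library. Rank 87 was similar, at 15.1, 9.56 and 5.61 FPKM in control, 0.41, 2.18 and 4.89 with NaCl and 2.56, 4.31 and 0.46 with sorbitol. The gap between its groups is smaller than the distance between libraries of a group. The narrowest gap of the 88 between the lowest control library and the highest NaCl or sorbitol library was that of rank 82, at 0.06 on the log2(FPKM + 1) scale, against a median gap of 0.74 and a highest of 2.12.

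With H2O2, 0 of the 88 were called by limma, where 0.111% of all tested genes were. At an unadjusted p below 0.05 there were 5 members, 4 lower and 1 higher, and 3235 of all 27038 genes (12%). The rule keeps H2O2 differences near 0, so this count is a description too. All 3 H2O2 libraries were above all 3 control libraries in 3 members (3.4%) and below them in 7 (8.0%). Of tested genes 12% and 5% did so, and of eligible genes 16.4% and 4.03%. The shares were 11.65% and 9.71% among the genes lowered further by NaCl. In 84 of the 88, every H2O2 library was above every NaCl and sorbitol library, where 11.5% of tested and 19.3% of eligible genes did so. Set against the H2O2 libraries in place of the controls, 85 of 88 were called lower with NaCl (19% of tested genes) and 80 with sorbitol (6.34%), all by limma at an adjusted p below 0.05. These contrasts use the same NaCl, sorbitol and H2O2 libraries as the rule.

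The falls were equal only within the bound. NaCl minus sorbitol was below 0 in 71 of the 88, with a median of -0.17 and quartiles of -0.29 and -0.02, where 13976 of the 27038 tested genes were below 0. It was within 0.1 of 0 in 22 members, between -0.4 and -0.3 in another 22 and between 0.3 and 0.4 in 3. The distribution had no gap at the bound. Of the 301 genes lowered by both, 36 had a difference from -0.4 to below -0.2 and 44 one from -0.6 to below -0.4, and 92.0% were below 0. The 88 genes are thus the upper side of a continuous spread whose median was -0.68, not a set standing apart, and "equally" names the bound.

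**Figure D4:**
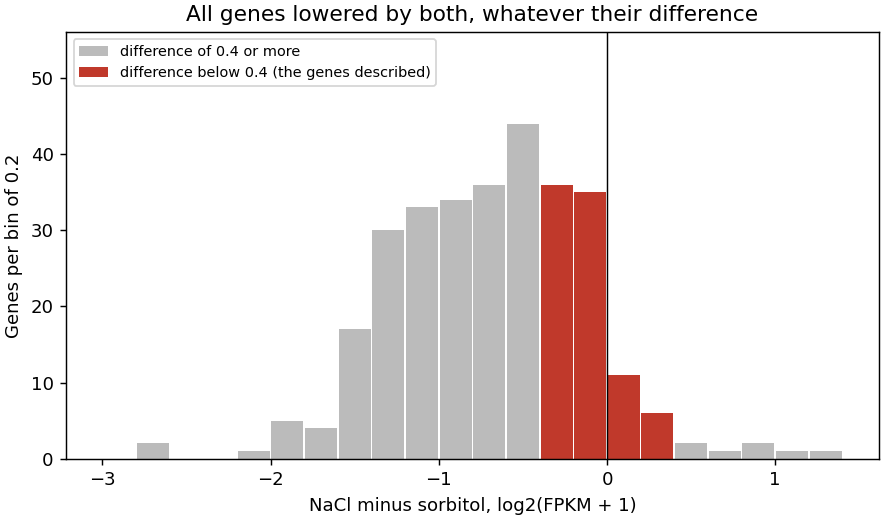
Number of genes (vertical axis) in bins of 0.2 of the NaCl minus sorbitol difference on the log2(FPKM + 1) scale (horizontal axis), for the 301 genes that meet the other conditions of the rule. The 88 genes with a difference below 0.4 in size (red) adjoin the fullest bin, of 44 genes, without a gap, and more of them lie left of 0 than right of it.

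By limma, 2 of the 88 differed between NaCl and sorbitol at an adjusted p below 0.05, where 20.7% of all tested genes did. They were named after their values were seen. Rank 19 was at 23.6, 20.8 and 22.5 FPKM with NaCl and 25.6, 28.9 and 27.3 with sorbitol (-0.28, adjusted p = 0.045), and that of rank 24 at 12.8, 11.0 and 13.4 with NaCl and 17.5, 15.0 and 15.3 with sorbitol (-0.34, adjusted p = 0.038). Both were lower with NaCl, with no overlap between the libraries. Neither call is firm. With the members found again, such calls numbered 0 without control replicate 2, NaCl replicate 1, NaCl replicate 2 or any sorbitol replicate, and 1 without H2O2 replicate 1. Leaving out libraries gave 3 at most, and fitting only the groups compared gave 0. The low share follows from the bound of the rule. Equality was not shown for most of the others, since the SE of the difference had a median of 0.15 and its 95% interval lay wholly within 0.4 of 0 in 21 members. That interval held 0 in 74 members, was below 0 in 12 and above it in 2. Every NaCl library was below every sorbitol library in 15 members, where 19% of tested and 29.4% of eligible genes did so. Every one was above in 2 members, where 16.7% and 25.3% did so. The libraries overlapped in 71 (80.7%), where 64.3% of tested and 45.3% of eligible genes did so. The bound of the rule keeps the 2 groups close, so nothing is read from these shares.

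The rule was then applied with 1 library left out, and that library, which had no part in the choice, was looked at in the genes found. The libraries of a group may not come from separate cultures, so a left-out library can show agreement between libraries only. Without each NaCl library in turn the rule found 85, 96 and 91 genes, and the left-out NaCl replicate 1, 2 or 3 was below all controls in 100%, 100% and 97.8% of them, where 45%, 38.7% and 39.7% of eligible genes were. Without each sorbitol library it found 113, 85 and 91 genes, and the left-out library was below all controls in 92.0%, 98.8% and 97.8%, where 29.1%, 34.5% and 33.2% of eligible genes were. The control libraries enter both the choice and this count. Each left-out control library was above all NaCl and sorbitol libraries in 98%, 98.8% and 94.5% of the genes found without it, where 24.5% to 25.0% of eligible genes were. There the NaCl and sorbitol libraries enter both.

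The size of the fall in a library that was not used was close to that in the libraries that were. Both are measured from the same control libraries, which took part in the choice. A control level that was high by chance would lower both medians. Their closeness thus shows agreement among libraries of a treated group only, and not the size of the fall from control. The median difference from control was -1.29, -1.42 and -1.24 in the left-out NaCl libraries, against -1.30, -1.23 and -1.23 in the remaining pair. In the left-out sorbitol libraries it was -0.95, -1.07 and -1.02, against -1.09, -1.11 and -1.07. Sorbitol replicate 1 fell short by the most.

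The median NaCl minus sorbitol difference was farther from 0 in the left-out library than in the libraries used for NaCl replicate 2 and all 3 sorbitol replicates, and nearer to 0 for NaCl replicates 1 and 3. With a NaCl library left out, the median of that library minus the sorbitol mean was -0.17, -0.32 and -0.15 for replicates 1, 2 and 3, where the libraries used gave -0.18, -0.14 and -0.18. With a sorbitol library left out, the NaCl mean minus that library had a median of -0.32, -0.22 and -0.25, where the libraries used gave -0.15, -0.13 and -0.16. In all 6 cases the level was lower with NaCl, in 68.1% to 84.4% of the genes found, where 49.1% to 58.4% of eligible genes were. The group mean on the other side of each difference took part in the choice. With all libraries, 92.0% of the 301 genes lowered by both were lower with NaCl. The lower level with NaCl is thus not particular to the genes found. The difference stayed within 0.4 in 53.1% to 76.5% of the genes found, where it did in 57.6% to 64.5% of eligible genes. For NaCl replicate 2 (61.5%, against 63.0%) and sorbitol replicate 1 (53.1%, against 59.5%) the share was below that of eligible genes, so nothing is read from it. A single library varies more than a mean of 3.

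**Figure D5:**
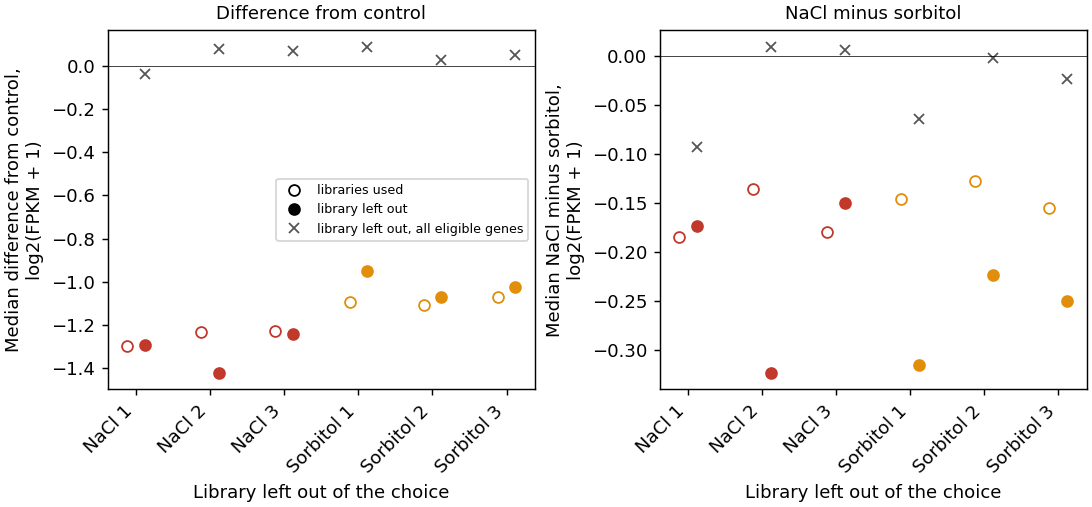
Medians over the genes found when the rule was applied without the library on the horizontal axis. Vertical axes show, on the log2(FPKM + 1) scale, the difference from control (left) and NaCl minus sorbitol (right). Open circles are the libraries used in the choice, filled circles the left-out library, and crosses the left-out library over all eligible genes. The left-out medians lie between -0.95 and -1.42 on the left, and all lie below 0 on the right, between -0.32 and -0.15.

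The left-out H2O2 libraries were within 0.4 of control in 77.3%, 76.5% and 79.8% of the genes found without them, below the 90.9%, 77.3% and 86.2% of eligible genes. Their medians were -0.04, 0.08 and -0.15, where eligible genes had 0.05, 0.12 and 0.08. The median level in unused H2O2 libraries was thus near control, but in each below that of eligible genes. Within the H2O2 group, replicate 3 was the lowest library in 46 of the 88 (52.3%, against 36.2% of eligible genes) and the highest in 9. Within the NaCl group, replicate 2 was the lowest in 44 (50%, against 25.9%). Among the 206 genes lowered further by NaCl these shares were 42.2% and 37.4%, so both were above those of eligible genes there too. The sorbitol libraries were the lowest in 23, 34 and 31 members. Within-group SDs on the log2(FPKM + 1) scale had a median of 0.14 for control and sorbitol and 0.20 for NaCl and H2O2, against 0.11, 0.12, 0.14 and 0.17 for eligible genes in the same order.

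The ID of a gene has a component part and a gene part, and genes of a component share sequence in the assembly, as alleles, copies or fragments do. The 88 members belonged to 88 components. In 63 of these (71.6%) the member was the only gene of the table, against 58.5% of eligible genes and 65.5% of the genes lowered further by NaCl. The other 25 shared their components with 99 further genes, of which 37 in 14 components had a control mean of at least 5 FPKM. These 37 were not chosen by the rule. Their median differences were -0.07 with NaCl and 0.00 with sorbitol, against 0.04 and 0.07 for all 14316 other genes at that level. Both differences were -0.8 or lower in 4 of the 37 (10.8%), against 4.03% of those other genes. Reads can be divided unevenly among genes of a component, so values of members that share one are less certain.

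The clearest of the 4 was the other gene of the component of c26404_g2. It was at 62.2, 63.9 and 52.3 FPKM in control, 9.76, 10.03 and 8.41 with NaCl, 13.0, 11.6 and 15.9 with sorbitol, and 55.9, 54.3 and 47.2 with H2O2. It was more abundant than c26404_g2 and showed the same separation of hypertonic from other libraries, but all its NaCl libraries were below its sorbitol libraries, and its NaCl minus sorbitol difference of -0.47 put it outside the bound. The other gene beside the member of rank 72 was at 11.0, 8.08 and 8.27 FPKM in control, 2.32, 1.53 and 1.72 with NaCl, 1.61, 1.96 and 1.61 with sorbitol, and 7.84, 11.1 and 6.74 with H2O2. Its NaCl minus sorbitol difference was 0.06, and its control mean of 9.12 FPKM was under the lower limit. The gene beside the member of rank 17 was lower with NaCl (-2.01) than with sorbitol (-1.08). The last, beside the member of rank 7, was at 0 in 1 control library and in all NaCl libraries and gives no firm value.

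Most of the 37 were not lowered by both. Beside the gene already given, the component of the member of rank 17 held others that were not, and its 11 other genes at 5 FPKM or more had NaCl differences from -2.01 to 0.68 and sorbitol differences from -1.08 to 0.40. The component of the member of rank 20 held 4, with NaCl differences from -0.68 to 1.132. A gene beside the member of rank 44, with a control mean of 56.2 FPKM, was higher with both NaCl (1.479) and sorbitol (1.085).

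Except at the upper limit of control level, the thresholds cut through values that differ little. The lowest control mean among members was 10 FPKM, and the nearest gene outside was at 9.97. No member was above 568 FPKM, and the nearest gene over the upper limit was at 1278 FPKM, with differences of -0.99 and -0.85. For the sorbitol bound, the nearest member was at -0.80 and the nearest gene outside also at -0.80 (-0.798). For the NaCl bound they were at -0.81 and -0.73. For NaCl minus sorbitol, -0.40 inside and -0.41 outside lay on the negative side, and 0.38 and 0.42 on the positive side. For H2O2, they were -0.40 and -0.41 on the negative side, and 0.38 and 0.43 on the positive side.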

How the data were processed

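RNA of 12 libraries was sequenced, 3 in each of 4 groups taken from the sample titles. Adapters were trimmed with cutadapt and transcript abundance was estimated with RSEM, to judge by the tools in the submitters' processing notes. Neither a version nor a reference or build was given in the sources used here. FPKM is the unit taken for the deposited values. It was inferred from 2-decimal values with sums that differ between libraries, and no label or header names it. Depth in reads is unknown.

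Values were analysed as log2(FPKM + 1) with a pseudocount of 1, which understates changes of low genes. A gene was tested if 3 or more libraries reached 1 FPKM, which held for 27038. All 12 libraries entered 1 limma fit with a mean-variance trend (limma 3.58.1 in R 4.3.3). It was checked on simulated data with independent normal noise, which cannot show whether the p-values hold for these libraries. Adjusted p-values are Benjamini-Hochberg values over all tested genes, with a threshold of 0.05, and are two-sided. Both comparisons with H2O2 libraries as the reference were added later. Python 3.11.15, pandas 2.3.3, numpy 2.4.6 and matplotlib 3.10.9 were used.

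The 88 genes and all comparisons were chosen with earlier results of these data known. Members described singly were ranks 1 to 10 by control level, the 5 largest averaged differences, the 3 closest NaCl and sorbitol pairs, and the genes nearest each threshold. Exceptions to calls were named after their values were seen. With no names for the IDs, no pathway list was run.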

Additional observations from a re-analysis of the deposited data

How the results depend on the processing

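The number of genes that meet the rule was 82 with a pseudocount of 0.1, 85 with 5, 106 under median-ratio scaling and 70 with equal sums, of which 74, 53, 78 and 67 were among the 88 (84.1%, 60.2%, 88.6% and 76.1% of the 88, and 90.2%, 62.4%, 73.6% and 95.7% of those lists). It was 100 without the condition on overlap. Stricter bounds left 52 (differences of -1 or lower), 46 (NaCl minus sorbitol within 0.2) and 58 (H2O2 within 0.2), since fewer genes can pass. Leaving out each library gave 81 to 113 genes, sharing 72 to 82 with the 88 (81.8% to 93.2% of the 88, 70.8% to 96.5% of those lists), and 35 of the 88 met the rule in all 12 such lists.

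Kept as chosen, the 88 were all lower with NaCl and with sorbitol under both scalings (added after the data were seen). The rule had put every member much further below control than the scalings moved the medians of all tested genes. This outcome was therefore fixed by the choice, and nothing is read from it. The medians of the 88 were -1.31 and -1.16 under median-ratio scaling and -1.20 and -1.01 with equal sums. Equal sums moved the sorbitol median of all tested genes from 0.07 to 0.12. The H2O2 median of the 88 was -0.13 under median-ratio scaling and -0.002 with equal sums, where all tested genes had -0.01 and 0.10.

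When each library was left out and the members found again, the lists held 81 to 113 genes. Of these, 78 to 112 were called lower with NaCl, 75 to 94 lower with sorbitol and 0 with H2O2. The same contrasts chose the genes each time, so nothing is read from these counts. Member calls between NaCl and sorbitol were 0 to 3 when each library was left out and 8 with a pseudocount of 5. They were 0 under median-ratio scaling, with no filter and with only the groups compared. The cause was not tested.

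Over all genes, leaving out each library gave 8220 to 10170 calls with NaCl, 2220 to 4206 with sorbitol, 0 to 73 with H2O2 and 4180 to 6116 between NaCl and sorbitol. Sorbitol calls were 2337 with no filter, 2355 and 2246 without control replicate 1 or 2, and 2220 if sorbitol replicate 3 was left out. H2O2 calls were 12 with a pseudocount of 0.1, 12 with no filter, 11 at 5 FPKM in 3 libraries and 1 with only the groups compared. They numbered 1 when any control library was left out, 4, 12 and 0 for H2O2 libraries 1, 2 and 3, 17, 15 and 19 for the sorbitol libraries in turn, and 73 for NaCl library 3.

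Deviations from the group means correlated at -0.083 to 0.047 between libraries of equal number (18 pairs), and for 3 of 12 libraries the best match had the same number. A paired fit was therefore not the reported one. With the replicate block, 0 genes were called with H2O2 and 0 members between NaCl and sorbitol.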

Other observations

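The genes raised equally by NaCl and sorbitol, found by the mirrored rule, were fewer (48 against 88) and moved less, with median differences of 1.131 with NaCl and 0.91 with sorbitol. NaCl lay further from control there too: NaCl minus sorbitol was above 0 in 42 of the 48, with a median of 0.17. Their H2O2 differences had a median of 0.17, whereas that of the 88 lowered genes was -0.03. These values chose the genes and are given without a test.

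Among the 6 lowered genes not called with sorbitol, sorbitol replicate 3 was the lowest sorbitol library in 6, NaCl replicate 3 the highest NaCl library in 5 and control replicate 1 the highest control library in 5. All of these held together in 5 of the 6, in 4 of the other 82 members and in 4.67% of the eligible genes. This was seen in the values and was not tested.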
